A study of Boehmeria nivea with 18 samples.

Results

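The miR156 and miR157 family of ramie (Boehmeria nivea), a bast fiber crop, was examined in small RNA libraries from bark of the top stem section (TPS), where the secondary walls of fibers had not begun to grow, and of the middle stem section (MPS), where these walls were thickening. All plants were of the cultivar Zhongzhu 1, with no treatment, and each section had 3 libraries. Bark was taken from 5 plants, and whether each replicate pooled all 5 is not stated. The labels give an age of 40 days, whereas the methods give a younger one. Members were the listed miRNAs whose name starts with miR156 or miR157 and no further digit, and an id absent from a library was taken as 0. This gave 14 ids of 379 listed miRNAs, of which 11 were named miR156 and 3 miR157, and 8 were listed in all 6 libraries. The values were tag counts and TPM, here the tags of an id for every 1000000 tags of its library.

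In plants, miR156 and miR157 differ by a few bases and guide the silencing of transcripts of SQUAMOSA promoter-binding-like (SPL) transcription factors. In Arabidopsis and other species they are abundant in juvenile shoots and decline as the shoot matures, while SPL factors and, through them, miR172 increase. The active strand comes mostly from the 5′ arm of the precursor hairpin, and the strand of the 3′ arm is usually degraded.

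Mature sequences were at hand for 12 of the 14 ids, in the list of bark miRNAs that accompanies the study. miR157a-5p and miR156_2 are not in that list and are named only. The sequences of the 5′ arm are shown first because small offsets and single base changes are all that parts these ids, with bases 2 to 8, the seed, in capitals.
miR156a: tGACAGAAgagagtgagcaca
miR156a-5p: tGACAGAAgagagtgagcaca
miR156k_2: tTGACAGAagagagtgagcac
miR156k: tGACAGAAgagagagagcaca
miR157d: tGACAGAAgatagagagcac
miR156g_1: aCAGAAGAtagagagcacag
miR156a and miR156a-5p carried the same 21 bases, and no source says how tags were shared between them. miR156k_2 shared a run of 20 bases with miR156a and began 1 base earlier. The seed GACAGAA was common to 4 of these 6 ids, whereas miR156k_2 and miR156g_1 each had a seed of its own, although miR156g_1 shared a run of 18 bases with miR157d. miR156k was placed on the 5′ arm by its run of 13 bases with miR156a only, since its precursor held no listed 3′ product.

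The ids of the 3′ arm and miR156z are shown for contrast, since they share little with the 5′ sequences.
miR156a-3p: gCTCACTTctctctctgtcagt
miR156b-3p: tGCTCACTctctatctgtcacc
miR156f-3p_4: gCTCACTCtctatctgtcacc
miR157d-3p: gCTCTCTAtgcttctgtcatc
miR156h-3p_3: gCTCTTTAttcttctgtcatc
miR156z: aTTGGAGTgaagggagct
miR159a_1: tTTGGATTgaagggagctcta
The longest run that miR156z shared with another member was 6 bases, against 11 bases with miR159a_1, which is printed last and is no member. miR156z, at 18 bases the shortest of the 12, therefore shared a longer run with miR159a_1 than with any member. Whether other miRNAs outside the family, miR319 among them, share a run as long was not analysed here. The files pair miR156z with soybean entries called miR156, so that it was kept by its name and is given separately below.

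The precursors in the same list placed these products in pairs of arms. Stretches from the 5′ to the 3′ product are shown for the 4 hairpins that held both, with the bases of listed products in capitals.
Hairpin of miR156a, miR156a-5p, miR156k_2 and miR156a-3p: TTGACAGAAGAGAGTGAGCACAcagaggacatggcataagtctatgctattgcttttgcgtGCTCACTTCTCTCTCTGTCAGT
Hairpin of miR156b-3p and miR156f-3p_4: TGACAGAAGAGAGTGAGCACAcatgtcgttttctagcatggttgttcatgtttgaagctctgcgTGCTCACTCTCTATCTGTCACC
Hairpin of miR156g_1 and miR157d-3p: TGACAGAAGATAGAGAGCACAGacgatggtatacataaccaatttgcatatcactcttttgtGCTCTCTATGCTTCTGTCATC
Hairpin of miR156h-3p_3 and miR157d: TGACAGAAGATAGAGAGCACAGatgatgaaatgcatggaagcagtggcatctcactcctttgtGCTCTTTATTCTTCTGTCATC
The sequence of miR156a and miR156a-5p was present in both the first and the second hairpin. The 21 bases of miR156k_2, with the extra base at the 5′ end, were found in the first one alone among the precursors of the list. In the same way, both miR157d and miR156g_1 matched the third and the fourth hairpin, so that their tags cannot be assigned to one of them, whereas each 3′ product matched a single hairpin.

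The libraries held 27.6 M to 32.0 M tags (M, 1000000), of which 3.36 M to 5.85 M were tags of miRNAs. At this depth, a count of 0 allows a level of up to 0.0939 to 0.109 TPM (3 counts per library), and this limit covers counting error only. In miRNA levels, replicate 1 of both sections stood apart. Over 338 miRNAs with at least 100 counts, Pearson's r of log2(TPM + 0.5) was 0.893 between the replicate 1 libraries of both sections, whereas TPS replicate 1 gave 0.780 with TPS replicate 2 and 0.733 with TPS replicate 3. These r are across miRNAs, which are not replicates. As a check of the labels, the cDNA libraries of the same sections listed BntWG10024039, the orthologue of the secondary wall cellulose synthase IRX1, at 12.2 to 51.1 FPKM in TPS and 42.7 to 215 FPKM in MPS. The transcript of the xylan gene BntWG10008444, a homologue of IRX15L, lay at 28.2 to 35.9 FPKM in TPS and 4.87 to 7.59 FPKM in MPS. edgeR called BntWG10008444 lower in MPS (log2 fold change -2.23, adjusted p = 0.0368), and did not call BntWG10024039 (2.64, adjusted p = 0.188). BntWG10013420, the MYB46/MYB83 orthologue, was at 0.23 to 0.58 FPKM in TPS and 1.46 to 3.08 FPKM in MPS. It was not called by edgeR (2.35, adjusted p = 0.134). The laccase gene BntWG10014338 was at 0 in TPS and 0.01 to 0.16 FPKM in MPS. BntWG10014339, also a laccase gene, was at 0.01 to 0.06 and 0.07 to 1.87 FPKM. By section means, BntWG10008444 thus ran opposite to these other wall genes. BntWG10024039, however, overlapped between the sections, and in replicate 1 it was lower in MPS (42.7 against 51.1 FPKM). Values of cDNA libraries cannot check the labels of the small RNA libraries. Tissue markers of other kinds were not analysed here.

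The family was scarce in stem bark of both sections. In all, 8141 tags were counted for it, which is 0.0298% of the miRNA tags. By library this share was 0.0114% to 0.0981%, and TPS replicate 3, with the highest share, held 3300 of the 8141 tags. The family's most abundant id by mean TPM, miR157a-5p, ranked 180 among the 379 miRNAs. Together with miR156k_2, miR156a-5p and miR157d-3p it made up 87.1% of the family's tags. For miR156k_2, 1617 of its 1729 tags came from TPS replicate 3. Another 4 ids (miR156h-3p_3, miR156f-3p_4, miR156g_1 and miR156b-3p) had fewer than 10 tags over the 6 libraries.

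The family total was at 17.3, 17.5 and 119.7 TPM in TPS replicates 1, 2 and 3, and at 30.6, 50.7 and 39.9 TPM in MPS replicates 1, 2 and 3. TPS replicate 3 was thus far above every other library, and the other TPS libraries were below all MPS libraries. With n = 3 libraries each, the mean ± SD was 51.5 ± 59.0 TPM for TPS and 40.4 ± 10.04 TPM for MPS, and the log2 ratio of MPS to TPS was -0.35. Without TPS replicate 3 the log2 ratio was 1.21. The direction of the total therefore rested on 1 library, and no test was made of it. The 3 miR157 ids together were at 11.5, 11.9 and 16.1 TPM in TPS and 23.2, 33.8 and 26.6 TPM in MPS, with no overlap and a mean 2.12 times as high in MPS. As a percentage of miRNA tags, the miR157 ids did overlap, with 0.0132% in TPS replicate 3 and 0.0126% in MPS replicate 1. The 11 miR156 ids together were at 5.74, 5.66 and 103.6 TPM in TPS and 7.45, 16.9 and 13.3 TPM in MPS. These sums pool both arms. By arm, the 7 ids of the 5′ arm were at 12.6, 13.2 and 107.9 TPM in TPS and 22.9, 27.5 and 24.7 TPM in MPS. The 5 ids of the 3′ arm were at 3.25, 2.95 and 10.7 TPM in TPS and 4.19, 15.8 and 13.0 TPM in MPS. The ratio of MPS to TPS means was 0.56 for the 5′ arm and 1.95 for the 3′ arm. Without TPS replicate 3 these ratios were 1.94 and 3.55. Fewer cells that express the family and less of it per cell cannot be told apart in these bulk samples.

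**Figure D1:**
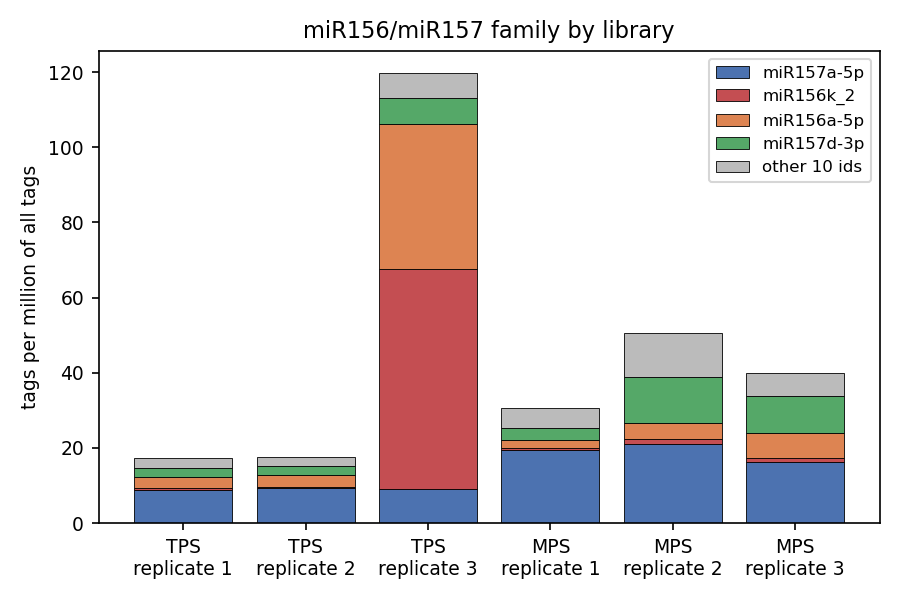
TPM, on a linear axis, for the miR156/miR157 family in each of the 6 libraries, stacked by id, with the 10 less abundant ids summed. TPS replicate 3 reached 119.7 TPM, mostly as miR156k_2 and miR156a-5p, while the miR157a-5p part was of similar height in the TPS libraries and higher in the MPS libraries.

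The makeup of the family in TPS replicate 3 differed from that in every other library. miR156k_2 took 49.0% of the family's tags there (95% exact binomial interval 47.3 to 50.7%), against 1.48 to 3.20% in the other 5 libraries. miR156a-5p took 32.2% (30.6 to 33.8%) there and 6.85 to 17.7% elsewhere. miR157a-5p, the leading id in the other libraries with 40.6 to 63.5%, took 7.48% (6.61 to 8.44%) in TPS replicate 3. These intervals cover counting error only, since tags without molecular identifiers are not independent molecules.

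Between the sections, 6 of the 14 ids passed the filter on low counts and were tested among 329 miRNAs with edgeR's quasi-likelihood test. A call needed an adjusted p under 0.05 together with a fold change of 2 or more in either direction. None of the 6 ids was called, and neither was any other miRNA (0% called). At an unadjusted p under 0.05, 1 of the 6 passed, miR157a-5p, against 59 of the 329 miRNAs (17.9%), of which 32 were higher in MPS (9.73% of the 329). DESeq2 called 1 of the 6, miR157a-5p, and 47 of the 329 miRNAs (14.3%), whereas limma on log2 TPM called none of the 6 and 9 of the 329. The median log2 fold change (MPS over TPS) of the 6 ids was 0.87, and that of all tested miRNAs was -0.19. In TPM, the sections did not overlap for 2 of the 6 ids, against 30.4% of the tested miRNAs. Both ids were higher in MPS, as were 12.2% of the tested miRNAs, and no member was lower in MPS without overlap. Where nothing says that plants of different replicates were grown apart, p-values measure the spread between these samples.

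**Figure D2:**
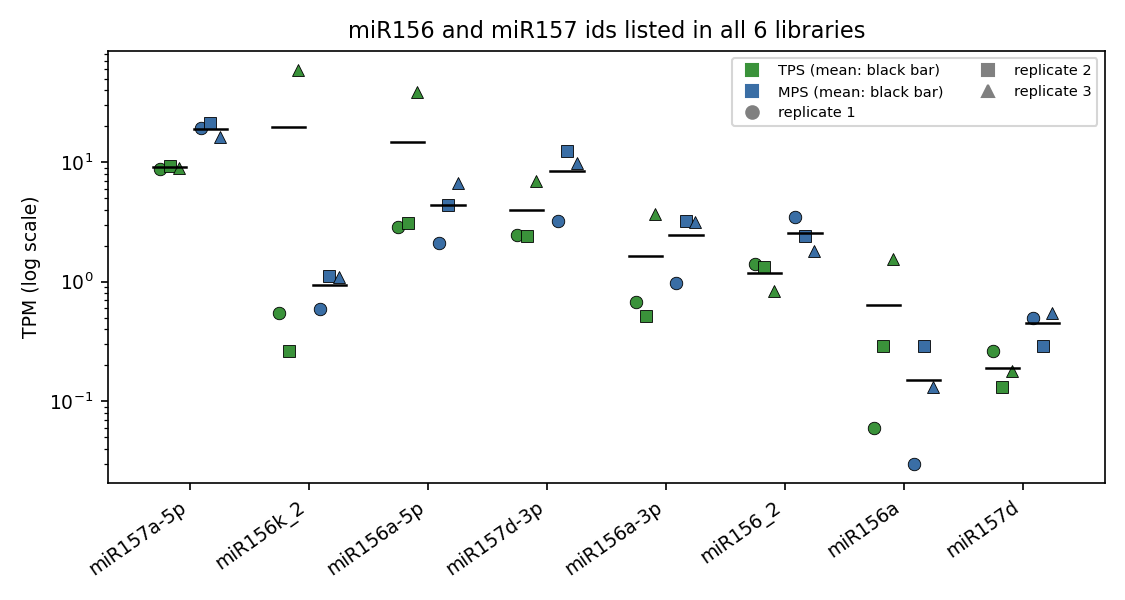
TPM on a log scale for the 8 ids listed in all 6 libraries; green is TPS, blue is MPS, symbols mark the replicate number, and black bars are section means. miR157a-5p, miR156_2 and miR157d show no overlap between the sections, while the TPS means of miR156k_2 and miR156a-5p are set by replicate 3 at 58.6 and 38.5 TPM.

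miR157a-5p, a 5′ product that the files pair with Arabidopsis miR157a, was higher in MPS by a factor of 2.10. It was at 8.80, 9.32 and 8.96 TPM in TPS replicates 1, 2 and 3, and at 19.4, 21.1 and 16.2 TPM in MPS replicates 1, 2 and 3. The TPS libraries lay close together, including replicate 3, and every MPS library was above them (p = 0.1, two-sided exact permutation test, which cannot give a smaller p with 3 against 3). From edgeR the log2 fold change was 1.09 (standard error 0.334), with an adjusted p = 0.158. Over the alternatives its adjusted p was 0.00515 (DESeq2) to 0.446. When a term set the replicate 1 libraries apart from the others, edgeR gave a log2 fold change of 1.09 with an adjusted p = 0.0452, and with replicates 2 and 3 only 1.15 with an adjusted p = 0.128. The difference was of the same size without the replicate 1 libraries, but its call depended on the model.

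miR156_2, which the files pair with miR156 of rubber tree, showed the same order of sections at a lower level. It was at 1.40, 1.33 and 0.83 TPM in TPS and 3.47, 2.39 and 1.80 TPM in MPS, in the order of replicates. The sections did not overlap, and the edgeR log2 fold change was 1.12 (standard error 0.477, adjusted p = 0.260). miR157d, a 5′ product of 20 bases, was likewise higher in every MPS library, at 0.29 to 0.55 TPM against 0.13 to 0.26 TPM in TPS. With 4 to 17 counts per library, miR157d did not pass the filter on low counts. In the fit without that filter, its log2 fold change was 1.32 (adjusted p = 0.311 from edgeR).

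miR156k_2 and miR156a-5p, 5′ products whose sequences the first hairpin holds, were lower in MPS on average. In both cases this came from TPS replicate 3. miR156k_2 was at 0.55, 0.26 and 58.6 TPM in TPS and 0.59, 1.11 and 1.09 TPM in MPS. TPS replicate 3 held 1617 of its 1729 tags and stood 52.8-fold above the next highest library. Every MPS library was above the other TPS libraries. The edgeR log2 fold change was -4.34 (standard error 2.02, adjusted p = 0.291), and 1.24 (adjusted p = 0.465) without TPS replicate 3. DESeq2 gave miR156k_2 no p-value. Thus the direction of this id reversed with 1 library, and neither value passed the test.

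miR156a-5p was at 2.89, 3.11 and 38.5 TPM in TPS and 2.10, 4.35 and 6.69 TPM in MPS. Its log2 fold change was -1.70 (standard error 1.14, adjusted p = 0.442 from edgeR), and 0.54 (adjusted p = 0.804 from edgeR) without TPS replicate 3. miR156a, of the same sequence, was at 0.06, 0.29 and 1.56 TPM in TPS and at 0.03, 0.29 and 0.13 TPM in MPS, again with its highest value in TPS replicate 3. When the counts of miR156a and miR156a-5p were summed, the log2 fold change was -1.72 (adjusted p = 0.433 from edgeR). Across the 6 libraries, the log2 levels of miR156a-5p and miR156k_2 correlated at r = 0.963, a value that rests on TPS replicate 3 and is given as a description. In the whole table, 3 of 338 miRNAs with at least 100 counts were 10-fold or more above all other libraries in TPS replicate 3 (miR156k_2, miR396g and miR397a_4), against 0 or 1 in any other library. TPS replicate 3 also had the fewest tags, 27.6 M, and its part in these values beyond the fits without it was not tested.

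**Figure D3:**
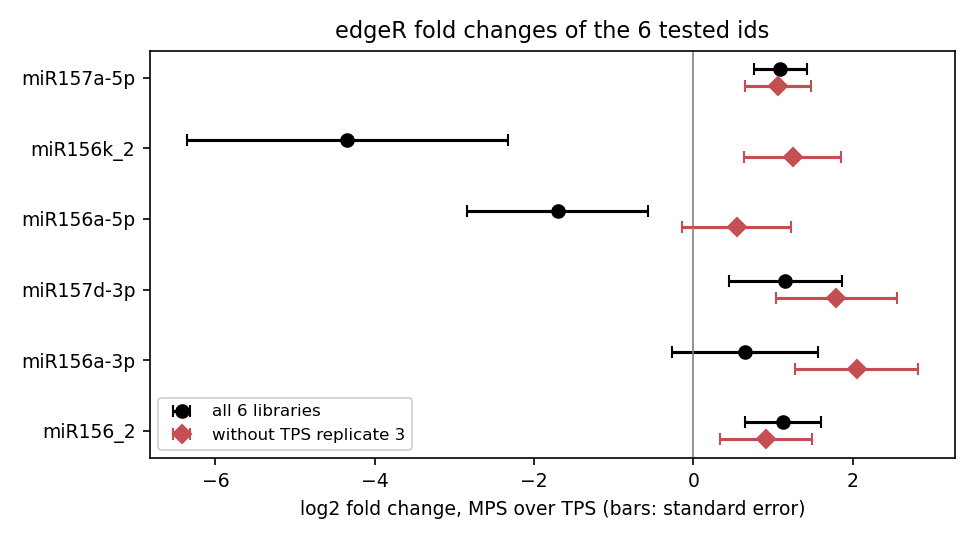
Log2 fold changes (MPS over TPS) of the 6 tested ids from edgeR with standard errors, for all 6 libraries (black) and without TPS replicate 3 (red). miR156k_2 moved from -4.34 to 1.24 and miR156a-5p from -1.70 to 0.54, while miR157a-5p stayed at 1.09 and 1.06.

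Without TPS replicate 3, the log2 fold changes of these 6 ids were all positive (0.54 to 2.05, median 1.15), beside 46.7% of the miRNAs tested in that fit. These signs are a description only. miR156k_2, miR156a-5p and miR156a-3p were highest in the library left out, so that leaving it out raised their fold changes by construction. Since the first hairpin holds the sequences of all of them, they also cannot be taken as independent. The fit without TPS replicate 3 also took in miR157d at 1.22 and miR156z at 4.72. None of the 8 was called by edgeR, and 2 had an unadjusted p under 0.05 (miR157a-5p and miR156a-3p), beside 42 of the 347 miRNAs tested in that fit (12.1%). With all libraries, 4 of the 6 were positive, beside 45.6% of the tested miRNAs.

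Of the 3′ products, miR157d-3p and miR156a-3p passed the filter on low counts. miR157d-3p, from the third hairpin, was at 2.47, 2.43 and 6.93 TPM in TPS and 3.22, 12.4 and 9.81 TPM in MPS. MPS replicate 1 was below TPS replicate 3, so that the sections overlapped, while within each replicate number MPS was above TPS. Its log2 fold change was 1.15 (standard error 0.709, adjusted p = 0.416 from edgeR). miR156a-3p, the 3′ partner of miR156a in the first hairpin, was at 0.68, 0.52 and 3.70 TPM in TPS and 0.97, 3.24 and 3.15 TPM in MPS. Its highest value was in TPS replicate 3, although only 1.14-fold above the next library, and its log2 fold change was 0.65 (standard error 0.915, adjusted p = 0.715 from edgeR). Without TPS replicate 3, its log2 fold change was 2.05 (standard error 0.774, adjusted p = 0.387 from edgeR). DESeq2 called miR156a-3p there (2.15, adjusted p = 0.0441), beside 42 of 347 miRNAs. That DESeq2 fit was chosen after seeing the data. It left out the library where miR156a-3p was highest, so that its call is no independent evidence.

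The balance of the arms of the first hairpin differed between libraries. miR156a, miR156a-5p and miR156k_2 together gave 5.14, 7.06 and 26.7 tags for each miR156a-3p tag in TPS and 2.81, 1.78 and 2.51 tags in MPS. All TPS libraries were above all MPS libraries, also without TPS replicate 3. This ratio was chosen after its values were seen and was not tested, and since the second hairpin holds the same 5′ sequence, some of the 5′ tags may not belong to the first one. For the second hairpin, the 3′ products miR156b-3p and miR156f-3p_4 had 1 and 6 tags in all.

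**Figure D4:**
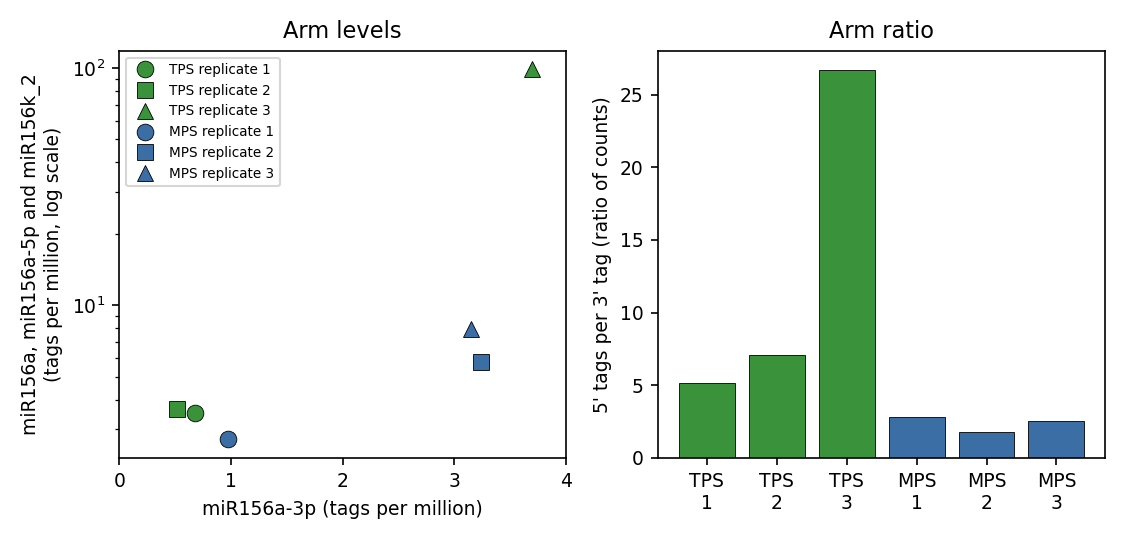
Left, TPM of the 5′ products (miR156a, miR156a-5p and miR156k_2, log axis) against miR156a-3p in each library; right, the ratio of their counts. TPS replicate 3 is highest on both axes, and the ratio is 5.14 or more in each TPS library and 2.81 or less in each MPS library.

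Among the remaining ids, miR156k, miR156g_1, miR156h-3p_3 and miR156f-3p_4 were counted at most 9 times in any library. miR156k, an id with the common seed, had 0, 3 and 2 counts in TPS and 9, 5 and 0 counts in MPS. miR156g_1 was listed in MPS replicates 2 and 3 only, with 4 and 2 counts, and miR156h-3p_3 in MPS replicate 2 only, with 6 counts. miR156f-3p_4 had 2, 0 and 3 counts in TPS and 0, 1 and 0 counts in MPS. For these ids a difference between the sections was not detectable at this depth. miR156z, the id whose sequence was closer to miR159a_1, had 2, 2 and 5 counts in TPS and 0, 151 and 13 counts in MPS. The high value of miR156z was thus that of MPS replicate 2, at 4.94 TPM against 0.42 TPM or less in the other libraries. Leaving miR156z out gave a log2 ratio of -0.41 for the family total.

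miR529b and miR535a_1 were more abundant than the whole family in every library. They resemble miR156 in sequence, with runs of 13 and 12 bases in common with a member, and miR529 targets SPL transcripts in rice.
miR529b: aGAAGAGAgagagtacagctt
miR535a_1: tGACAACGagagagagcacgc
miR529b was at 530, 655 and 459 TPM in TPS and 764, 1165 and 688 TPM in MPS. This was 3.83 times the family total in TPS replicate 3 and 17.3 to 37.4 times the total in the other 5 libraries. miR535a_1 was at 95.7, 149 and 206 TPM in TPS and 339, 475 and 466 TPM in MPS. Both were higher in each MPS library than in any TPS library, as were 12.2% of the tested miRNAs. Neither was called by edgeR. The log2 fold changes from edgeR were 0.68 (standard error 0.376, adjusted p = 0.366) for miR529b and 1.52 (standard error 0.427, adjusted p = 0.142) for miR535a_1.

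miR172 represses AP2-like transcription factors in Arabidopsis. Of its 15 ids in the table, 12 were tested. In the edgeR fit their log2 fold changes were positive in all 12 cases (0.07 to 4.52, median 1.19), beside 45.6% of all tested miRNAs. None was called by edgeR, and 5 had an unadjusted p under 0.05, beside 17.9% of the tested miRNAs (9.73% higher in MPS). DESeq2 called 6 of the 14 tested miR172, miR529 and miR535 ids, beside 14.3% of the tested miRNAs. Limma called 1 of them, beside 9 of the 329 miRNAs. All of the called miR172, miR529 and miR535 ids were higher in MPS. In 8 of the 12 tested miR172 ids all MPS libraries were above all TPS libraries, beside 12.2% of the tested miRNAs. The most abundant of them, miR172h-5p, overlapped, at 97.2, 21.9 and 42.9 TPM in TPS and 215, 52.2 and 57.4 TPM in MPS. The miR172 ids include both arms and close isoforms, so that they are not independent. The 3 miRNAs outside the family whose log2 TPM over the 6 libraries was most like that of miR157a-5p were novel_mir3 (Pearson's r = 0.982), miR172e-3p (r = 0.973) and miR172b-5p_3 (r = 0.969), out of 331 miRNAs searched. For example, miR172e-3p was at 6.52, 4.63 and 4.42 TPM in TPS and 21.4, 22.2 and 17.8 TPM in MPS. As the most alike of many, these r are a description only, over 6 libraries that fall into 2 sections.

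**Figure D5:**
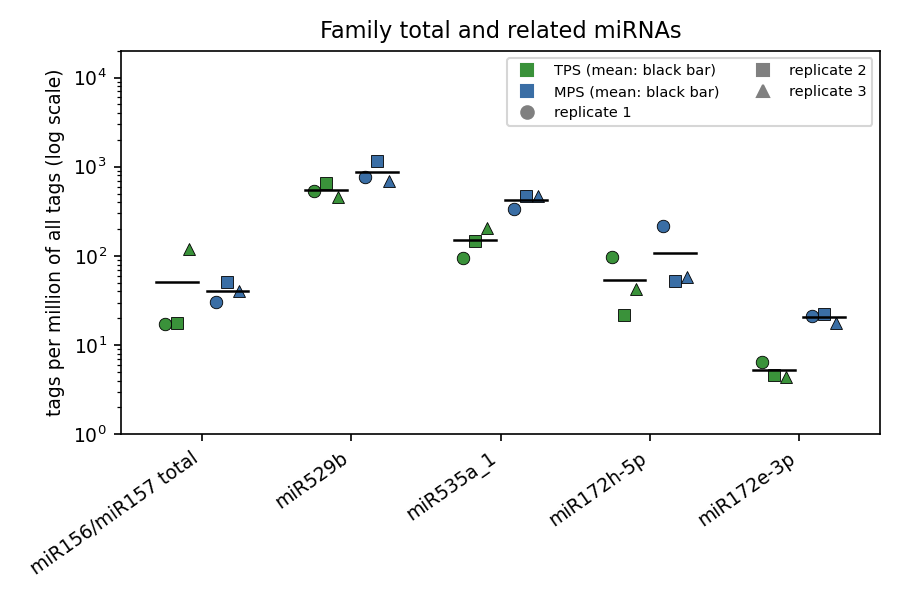
TPM on a log scale for the summed miR156/miR157 family, miR529b, miR535a_1 and a pair of miR172 ids, by section and replicate, with section means as black bars. miR529b lies at 459 to 1165 and miR535a_1 at 95.7 to 475, each above the family total in all 6 libraries.

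Transcripts of SPL genes could be followed for 3 genes only, those with an SPL name among the genes that the study listed as differing between these samples, so that their direction is no independent evidence. Each name is that of a matching protein in another species. BntWG10010765, named for SPL7 of rice, was at 0.02, 0.02 and 0.37 FPKM in TPS and 0, 0 and 0.09 FPKM in MPS. Its highest value was in TPS replicate 3. BntWG10008067, named for SPL8 of Arabidopsis, was at 1.00, 0 and 0.17 FPKM in TPS and listed at 0 in MPS, and BntWG10011306, named for SPL12 of Arabidopsis, was at 0.02, 0 and 0.07 FPKM in TPS and listed at 0 in MPS. SPL8 and SPL12 of Arabidopsis lack the miR156 site, and whether the ramie genes have it was not analysed here. All 3 were under the filter on low counts, so that they were not tested and could not be called. Of the 13585 annotated genes that passed the filter, 0.758% were called. Without that filter, their adjusted p from edgeR was 0.516 (BntWG10008067), 0.697 (BntWG10010765) and 0.517 (BntWG10011306).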

How the data were processed

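Small RNA libraries of TPS and MPS (3 each, sequenced on BGISEQ-500) were grouped by the stem section in their labels. The authors filtered the reads, compared clean tags with miRBase and Rfam (AASRA, CMsearch), predicted further miRNAs with PIPmiR and deposited a tag count per small RNA; the deposited TPM is that count for every 1000000 tags of the library, within 0.005 of the recomputed value. The deposited expected counts and FPKM of transcripts were made by the authors with HISAT, StringTie, Bowtie2 and RSEM, and transcripts not listed were taken as 0. In these files annotated genes carry the prefix whole_GLEAN, which the study writes as BntWG with the same number. The methods name a ramie genome as the reference, while tool versions are not stated. A table of circRNA values with 6 columns and all published fold changes were not used.

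Counts of all miRNAs were compared with edgeR 4.0.16 in R 4.3.3 (quasi-likelihood test, TMM, filterByExpr, library totals as library sizes), with Benjamini-Hochberg adjustment over 329 miRNAs. Calls needed an adjusted p under 0.05 and at least a 2-fold difference. The study's own test, DEGseq, takes reads as the unit and was not used. Expected counts were rounded, fitted together for all transcripts and adjusted within 13585 annotated genes. Standard errors were taken as the size of the log2 fold change divided by the square root of F. Alternatives used DESeq2 1.42.0, limma 3.58.1 (log2 TPM with 0.5 or 1 added), other scalings, no filter, the replicate number as a block, replicate 1 as a term, and fits without single libraries. Exact tests and plots used Python 3.11.15, scipy 1.17.1 and matplotlib 3.10.9. Members are all ids that fit the naming rule; the other ids named are miR529 and miR535, the 3 miRNAs most like the most abundant member, and genes the study names or lists. Members and lists were chosen with earlier results of these data known.

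The common dispersion between replicates was 0.523, and 0.293 with replicate 1 as a term. In simulated miRNA counts at a dispersion of 0.5, 6 of 30 miRNAs changed by 2 on the log2 scale were called by edgeR, as were 26 of 30 changed by 4, among 329. Deviations from the section means of same-numbered libraries correlated at 0.780, 0.542 and 0.482 for replicates 1, 2 and 3. All were positive, but TPS replicate 3 correlated with MPS replicate 2 at 0.507 and TPS replicate 2 with MPS replicate 3 at 0.338. Replicate 1 alone was thus set clearly apart. The main edgeR fit did not pair the samples, and the replicate number entered only in the alternatives with a block or a replicate 1 term.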

Additional observations from a re-analysis of the deposited data

How the results depend on the processing

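Of 95 refits of the 6 tested ids that gave a p-value, 91 kept direction and side of the threshold, and DESeq2 gave miR156k_2 a log2 fold change of -4.21 with no p-value. The exceptions were miR157a-5p, called by DESeq2 and with replicate 1 as a term, and miR156k_2 and miR156a-5p, which reversed without TPS replicate 3. Over the fits without 1 library, the log2 fold change of miR156k_2 was -4.85 to 1.24, that of miR156a-5p -2.11 to 0.54, and the log2 ratio of the family total -0.76 to 1.21, with the positive value in each case from the fit without TPS replicate 3. In fits chosen after seeing the data, which left out TPS replicate 3, DESeq2 gave 1.35 for miR156k_2 and 0.63 for miR156a-5p, and edgeR with replicate 1 as a term gave 1.17 and 0.26. Members called were 0 with edgeR, 1 with DESeq2, 1 with replicate 1 as a term, and, without TPS replicate 3, 2 with DESeq2 (miR157a-5p and miR156a-3p). With both replicate 1 as a term and TPS replicate 3 left out, edgeR called 0 members and 0 miRNAs (miR157a-5p, adjusted p = 0.127). Over all miRNAs, edgeR, DESeq2, the replicate 1 term and DESeq2 without TPS replicate 3 called 0, 47, 31 and 42, limma called 9 at either value added, and the edgeR fits without 1 library called 0 to 5, the 5 without TPS replicate 1. Of the miR172, miR529 and miR535 ids, 0, 6, 2 and 5 were called in the same order, and 1 by limma. Against the edgeR fit, DESeq2 shifted the median log2 fold change of all miRNAs by 0.11, and by 0.20 without TPS replicate 3. Fits without TPS replicate 1, without TPS replicate 2 and with replicates 2 and 3 only shifted it by 0.15, 0.12 and 0.15. The cause of these differences was not tested.

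With the replicate number as a block, 0 miRNAs were called, and the log2 fold change was -0.89 for miR156k_2 (adjusted p = 0.780 from edgeR), -0.79 for miR156a-5p and 1.09 for miR157a-5p (adjusted p = 0.0799 from edgeR); the block changed no call. The SPL genes passed no filter on low counts, so that only the fit without a filter gave them values, and none was called. Counts under about 10 per library limit what can be said of the rarer ids.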
